A study of Macaca mulatta with 12 samples.

Results

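The 8 genes described here encode RNA-binding proteins and nucleases that set how long inflammatory mRNAs persist in a cell. They are the tristetraprolin family (ZFP36, ZFP36L1 and ZFP36L2), the Regnase family genes ZC3H12A and ZC3H12C with their relative N4BP1, the Roquin gene RC3H1, and ELAVL1. They were picked by gene name, with earlier results of these data known, from the 32386 genes of a count table made from rhesus macaque (Macaca mulatta) blood macrophages, and 8 rows were matched to them. ZFP36, ZFP36L1 and ZC3H12C are listed there by symbol. ZC3H12A, N4BP1, RC3H1 and ELAVL1 were matched by Ensembl identifier to a macaque name table. ZFP36L2 was matched only through the authors' deposited tables, which list genes past the authors' own threshold for late against early cells. Its name was therefore found only because the gene had passed there. The macaque name table gives the symbol ZFP36L2 to another identifier, which is not a row of the count table, so all ZFP36L2 values here rest on the authors' naming.

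Tristetraprolin proteins bind AU-rich elements in the tails of cytokine mRNAs through a pair of zinc fingers and recruit the CCR4-NOT complex, which shortens the poly(A) tail. Regnase-1, the product of ZC3H12A, is an endonuclease that cuts stem-loops in mRNAs such as that of IL6, and Roquin-1, the product of RC3H1, binds similar stem-loops and recruits deadenylation and decapping factors. The ELAVL1 protein, HuR, binds AU-rich elements too, and is best known for stabilizing its targets. In human and mouse macrophages LPS, a bacterial cell wall component sensed through TLR4, induces both cytokine mRNAs and several of these decay factors, which act as a brake.

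The blood came after transplant of autologous CD34+ blood-forming cells treated with CRISPR/Cas9, in a study titled for hematopoiesis with mutant TET2. That background is shared by all groups, and the labels give no unedited group, no share of edited cells, no age and no number of animals. Cells positive for CD14 and CD163 and negative for CD16 were sorted from blood and plated at 250000 per well for 8 h. The 4 groups of 3 libraries were late stimulated (Late ACT, 19 months after transplant, LPS at 100 ng/ml with interferon-gamma at 20 ng/ml), late unstimulated (Late CTL), early stimulated (Early ACT, 4.5 months, the same stimuli) and early unstimulated (Early CTL). Interferon-gamma stands in the protocol but not in the short treatment label. Whether the 3 replicates of a group are animals, wells or repeat preparations is not stated, and the p-values therefore cover the spread among the libraries alone, possibly a technical one. Dates are not labelled, and a batch shared by all late or all early libraries cannot be told apart from time.

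Library totals ran from 3910680 to 12972505 counts. Levels are given as normalized CPM, counts scaled by the TMM-adjusted library total, which is the scale of the test. TET2 was at 417.3 to 442.2 normalized CPM in Late ACT, 409.1 to 416.2 in Late CTL, 285.3 to 343.4 in Early ACT and 244.0 to 257.1 in Early CTL libraries, and a count of its transcripts does not show whether the gene was edited. The sort markers were present in all libraries, and all 10 macrophage and monocyte markers summed to 5610 to 6610 normalized CPM in late and 9210 to 10300 in early libraries. Markers of neutrophils (7 of 8 found) summed to 324 to 414 in late and 652 to 761 in early libraries. Sums were at most 5.94 for T cells (4 of 7 found), 8.98 for B cells (6 of 6), 14.1 for NK cells (4 of 6), 3.57 for platelets (4 of 5) and 1.08 for erythroid cells (3 of 5, with HBA1 at 0 in every library). Dendritic cell markers (5 of 7 found) summed to 45.9 to 72.2. Library Early ACT 1, with 4602109 counts, stood apart from its group for several of the 8 genes, and results that rest on it are also given without it. Late ACT and Late CTL libraries were hard to tell apart, as edgeR called 0 of 11826 genes between Late ACT and Late CTL (527 at an unadjusted p under 0.05, and 14 of 2125 genes with an adjusted p in DESeq2). The chemokine gene CCL20 averaged 653.5 ± 50.9 normalized CPM in Late ACT, 620.6 ± 28.6 in Late CTL, 649.3 ± 49.1 in Early ACT and 201.6 ± 12.1 in Early CTL libraries (SD, n = 3 each), so for this gene unstimulated late cells stood near stimulated early ones. Other genes stood apart in either direction. IL6 averaged 80.89 ± 3.21 in Late CTL and 205.3 ± 8.49 in Early ACT libraries, and CCL2 141.7 ± 13.7 and 92.78 ± 15.3. A stimulus without effect in late cells, late cells active before it and mixed late labels cannot be told apart here, and every late value carries that limit.

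The 8 genes did not differ between the times in 1 direction. In unstimulated macrophages 5 of the 8 genes differed between the times, with ZC3H12C and ZFP36L2 higher and ZFP36, ZFP36L1 and N4BP1 lower late. That count was 3 under RLE and under upper-quartile scaling, where ZFP36L1 and N4BP1 lost the call, and 3 to 4 with a library left out. In stimulated macrophages 6 of 8 differed, the same 5 in the same directions and ZC3H12A, which was lower late. Upper-quartile scaling shifted the median of all genes by over 0.1 on the log2 scale, to 0.15 in both comparisons, and the share of calls that were higher late to 63.3% and 61% in place of 51.3% and 49.3%. The member shares stand beside a background of 40.7% of all genes called in unstimulated and 38.8% in stimulated cells, so the count of members alone does not set them apart. ZFP36L2 is in both counts, though it has its name only because it had passed in the authors' tables for late against early cells. Its part in the counts was thus largely fixed in advance. The median log2 fold change of the 8 was -0.15 unstimulated and -0.28 stimulated, against 0.02 and 0.05 over all tested genes.

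**Figure D1:**
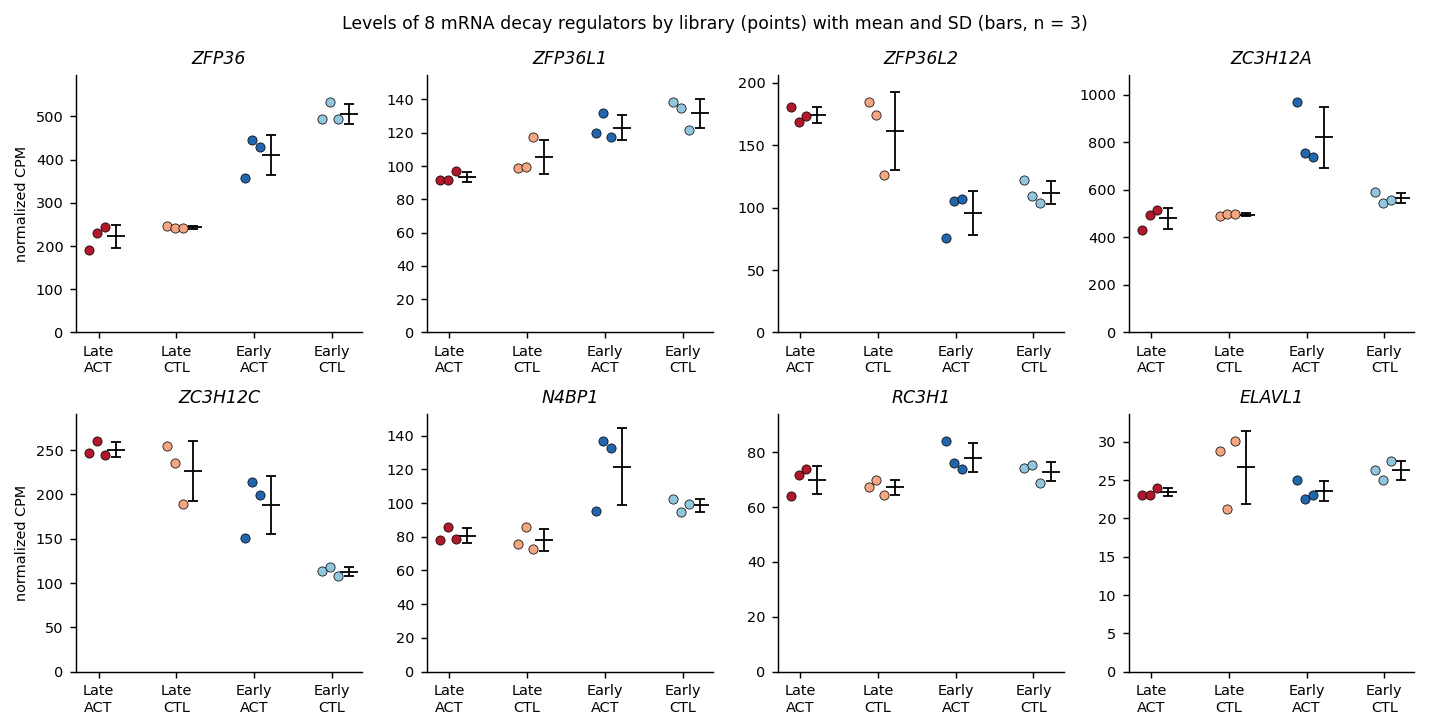
Normalized CPM (vertical axes, from 0) of the 8 genes in each library (points) of the Late ACT, Late CTL, Early ACT and Early CTL groups, with mean and SD (black bars, n = 3). All 6 late ZFP36 values lie below all 6 early ones, and all 6 late ZFP36L2 values lie above all 6 early ones. For ZFP36L2 a difference between the times was largely fixed in advance by how it was named.

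ZFP36 encodes tristetraprolin, the founding member of its family and itself an unstable, stimulus-induced mRNA. It had 246.4, 242.3 and 241.0 normalized CPM in Late CTL libraries, against 493.6, 533.1 and 493.0 in Early CTL libraries. The groups did not overlap, and the late level was 2.08-fold lower (log2 fold change -1.06 ± 0.12 SE, adjusted p = 1.34e-07, edgeR quasi-likelihood test). Stimulated cells showed the same order, with 191.9, 230.1 and 244.8 in Late ACT libraries against 357.3, 444.4 and 429.7 in Early ACT libraries, 1.85-fold lower late (adjusted p = 2.29e-06, edgeR). The lowest Early ACT value is that of Early ACT 1, and without it the log2 fold change was -0.995. The authors' deposited tables give -1.05 ± 0.08 for unstimulated and -0.88 ± 0.15 for stimulated cells. ZFP36 (ENSMMUG00000038702) spans 35154582 to 35157444 of chromosome 19 on Mmul_8.0.1, as given by the authors' deposited table.

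ZFP36L1, a paralog that recruits the same deadenylase and also acts in lymphocyte development, was lower late too. Late CTL libraries had 99.12, 99.68 and 117.5 normalized CPM, against 138.4, 134.7 and 121.6 in Early CTL libraries. The groups did not overlap, though the highest late and lowest early values were close, and the log2 fold change was -0.32 ± 0.12 (adjusted p = 0.0326, edgeR). That call was lost in 6 of 13 alternatives, including RLE and upper-quartile scaling (adjusted p = 0.0628 and 0.206) and leaving out Early CTL 1, Early CTL 2, Late CTL 1 or Late CTL 2. In stimulated cells the values were 91.49, 91.58 and 96.92 late and 119.6, 131.7 and 117.7 early, a log2 fold change of -0.40 ± 0.12 (adjusted p = 0.0089, edgeR) that passed in all 13 alternatives. ZFP36L1 (ENSMMUG00000044603) lies on chromosome 7 from 130940200 to 130949361 of Mmul_8.0.1 in the authors' deposited table.

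ZFP36L2, the third paralog, went the other way. It has its name only because it had passed late against early in the authors' deposited tables. Its calls late against early were thus largely fixed in advance. ZFP36L2 had 184.6, 174.2 and 126.3 normalized CPM in Late CTL libraries, against 122.1, 109.7 and 103.9 in Early CTL libraries. The late level was 1.44-fold higher (log2 fold change 0.53 ± 0.14, adjusted p = 0.00452, edgeR). The groups did not overlap, but Late CTL 3 came close to the early range. In stimulated cells it had 181.0, 168.3 and 173.5 in Late ACT libraries against 75.28, 105.3 and 106.8 in Early ACT libraries. Here the fold was 1.81 (adjusted p = 5.58e-05, edgeR), and without the lowest library, Early ACT 1, the log2 fold change was 0.70 in place of 0.85. The interaction of time and stimulation, which tests whether these 2 differences are unlike, did not pass (0.32, 95% interval -0.09 to 0.74, adjusted p = 0.599, edgeR). The authors' deposited table places ZFP36L2 (ENSMMUG00000042653) on chromosome 13 from 43913184 to 43917425 of Mmul_8.0.1.

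Counting 1 family member against another within a library removes any library scaling. There were 94.4, 73.1 and 70.9 ZFP36L2 counts per 100 ZFP36 counts in Late ACT libraries and 74.9, 71.9 and 52.4 in Late CTL libraries, against 21.1, 23.7 and 24.9 in Early ACT and 24.7, 20.6 and 21.1 in Early CTL libraries. Every late ratio was above every early ratio, and stimulated and unstimulated libraries of the same time overlapped. ZFP36L2 has its name only because it had passed late against early in the authors' deposited tables. A shift of this ratio between the times was thus largely fixed in advance. ZFP36L1 per 100 ZFP36 counts averaged 42.4 ± 4.62 in Late ACT, 43.4 ± 4.68 in Late CTL, 30.2 ± 3.07 in Early ACT and 26 ± 1.80 in Early CTL libraries (SD, n = 3 each). The levels of different genes are not compared here, since counts also depend on transcript length, and only the change of a ratio between groups can be read. With 3 libraries against 3 an exact permutation test cannot go below p = 0.10, so the ratios were not tested.

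**Figure D2:**
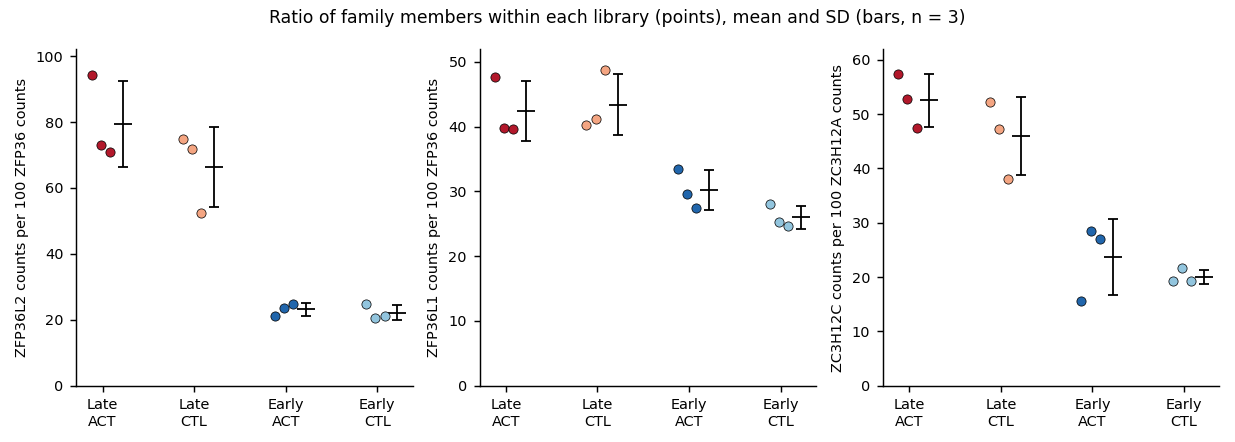
Counts of ZFP36L2 and ZFP36L1 per 100 counts of ZFP36, and of ZC3H12C per 100 counts of ZC3H12A (vertical axes), in each library (points), with mean and SD (bars, n = 3). ZFP36L2 stood at 52.4 or more in the late and at 24.9 or less in the early libraries. Its difference between the times was largely fixed in advance by how it was named.

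ZC3H12A encodes Regnase-1, which cleaves IL6 and IL12B mRNAs and in mice restrains macrophage activation. In unstimulated cells it had 488.3, 499.2 and 497.4 normalized CPM in Late CTL libraries, against 588.5, 545.7 and 558.3 in Early CTL libraries. Every late value was below every early value, yet the difference was small and did not pass (log2 fold change -0.19, 95% interval -0.43 to 0.05, adjusted p = 0.204, edgeR). The authors' deposited table for unstimulated cells lists ZC3H12A at -0.17 ± 0.07 with an adjusted p of 0.0462. In stimulated cells the fall was clear, with 430.4, 493.3 and 514.7 in Late ACT libraries against 968.5, 754.6 and 737.1 in Early ACT libraries, 1.71-fold lower late (adjusted p = 1.39e-05, edgeR). Early ACT 1 held the highest value, and without it the log2 fold change was -0.66 in place of -0.77. ZC3H12A (ENSMMUG00000010323) lies on chromosome 1 from 36667030 to 36675209 of Mmul_8.0.1 in the authors' deposited table.

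ZC3H12C encodes Regnase-3, a relative with the same nuclease fold that in mice is expressed in myeloid cells. It had 255.0, 235.9 and 189.4 normalized CPM in Late CTL libraries, against 113.1, 117.6 and 107.7 in Early CTL libraries. The groups were far apart and the late level was 2.01-fold higher (log2 fold change 1.01 ± 0.13, adjusted p = 1.73e-06, edgeR). Stimulated cells had 246.8, 259.7 and 244.4 in Late ACT libraries against 151.1, 214.0 and 199.1 in Early ACT libraries, a log2 fold change of 0.41 ± 0.13 (adjusted p = 0.0158, edgeR). That value was 0.26 without Early ACT 1, the lowest early library, a change of over 1.5 times with the call kept (adjusted p = 0.026), and the call was lost without Late ACT 2 (adjusted p = 0.0687). Per 100 ZC3H12A counts there were 52.5 ± 4.93 ZC3H12C counts in Late ACT, 45.9 ± 7.17 in Late CTL, 23.7 ± 7.01 in Early ACT and 20.0 ± 1.33 in Early CTL libraries (SD, n = 3 each). The late and early ratios did not overlap. The authors' deposited table places ZC3H12C (ENSMMUG00000048435) on chromosome 14 from 102996715 to 103068580 of Mmul_8.0.1.

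N4BP1 encodes a protein with a Regnase-like nuclease domain that dampens cytokine production in mouse macrophages and is itself cleaved by caspase-8 or the protease MALT1. Late ACT libraries had 77.79, 85.84 and 78.42 normalized CPM, against 95.33, 136.5 and 132.8 in Early ACT libraries, 1.52-fold lower late (adjusted p = 0.000915, edgeR). The groups did not overlap, and without Early ACT 1, the lowest of its group, the log2 fold change was -0.76 in place of -0.60. In unstimulated cells N4BP1 had 75.66, 85.76 and 72.85 late and 102.3, 94.73 and 99.31 early, a log2 fold change of -0.34 ± 0.13 near the threshold (adjusted p = 0.0459, edgeR). That call was lost in 10 of 13 alternatives, with adjusted p up to 0.206. They were RLE and upper-quartile scaling, the stricter filter, DESeq2, the replicate block (adjusted p = 0.0503) and leaving out Early CTL 1, 2 or 3 or Late CTL 1 or 3. N4BP1 (ENSMMUG00000018978) lies on chromosome 20 from 32290988 to 32364321 of Mmul_8.0.1 in the authors' deposited table.

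RC3H1 and ELAVL1 did not pass in any of the 5 comparisons. RC3H1 (ENSMMUG00000000630) ranged from 63.95 to 73.88 normalized CPM in Late ACT, 64.5 to 69.72 in Late CTL, 73.89 to 83.94 in Early ACT and 68.85 to 75.37 in Early CTL libraries. Its log2 fold change late over early was -0.12 (95% interval -0.37 to 0.13) unstimulated, turning to 0.01 under upper-quartile scaling, and -0.16 (-0.40 to 0.09) stimulated. ELAVL1 (ENSMMUG00000006544) was the gene with the fewest counts of the 8, at 101 to 322 a library, and ranged from 23.09 to 24.01 normalized CPM in Late ACT, 21.21 to 30.05 in Late CTL, 22.59 to 25.01 in Early ACT and 25.03 to 27.47 in Early CTL libraries. Its intervals were -0.31 to 0.34 unstimulated and -0.33 to 0.33 stimulated, which leaves changes of that size undetected at this depth. The sign of the ELAVL1 values turned with the scaling or filter. Neither gene is listed in the authors' deposited tables.

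**Figure D3:**
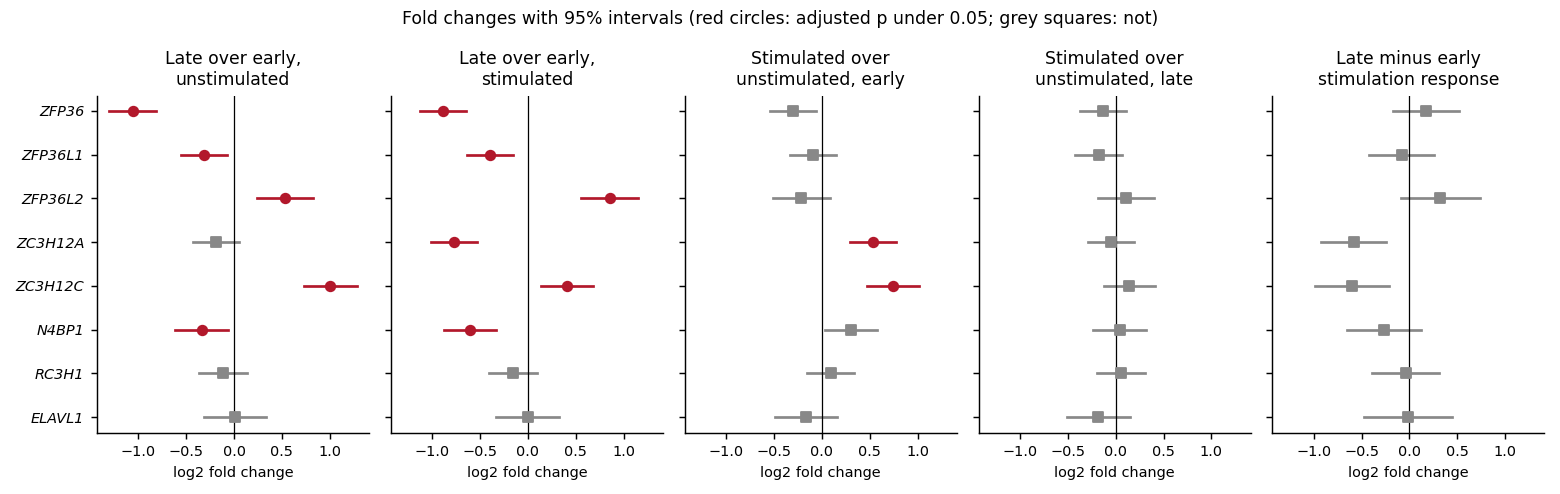
Log2 fold change (horizontal axes) with 95% intervals of the 8 genes in 5 comparisons: late over early in unstimulated and stimulated cells, stimulated over unstimulated at each time, and the late minus the early stimulation response. Red circles passed an adjusted p of 0.05 (edgeR) and grey squares did not; 5, 6, 2, 0 and 0 genes passed.

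The macrophage marker sum, CD163 and CD14 were lower late along with ZFP36. CD163, the hemoglobin scavenger receptor of the sort, averaged 585.8 ± 14.8 normalized CPM in Late CTL and 1197 ± 47.3 in Early CTL libraries, and CD14, the LPS co-receptor, 1506 ± 191 and 2169 ± 80.6 (SD, n = 3 each). In bulk RNA fewer cells of a type and less RNA per cell cannot be told apart. The part of these markers in the late values of the 8 genes was not tested.

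Stimulation of early macrophages raised both Regnase genes. ZC3H12A was 1.45-fold higher in Early ACT than in Early CTL libraries (log2 fold change 0.54 ± 0.12, adjusted p = 0.00366) and ZC3H12C 1.67-fold higher (0.74 ± 0.13, adjusted p = 0.000457, edgeR quasi-likelihood test), with no overlap between the groups for either gene. These 2 of 8 stand beside a background of 7.23% of genes called, 4.57% higher and 2.66% lower. ZFP36, an early-response gene known to peak within hours of LPS in mouse macrophages, was not higher at 8 h. Its 3 Early ACT values lay below all Early CTL values, at a log2 fold change of -0.30 ± 0.12 that did not pass (adjusted p = 0.124). ZFP36L1 (-0.10, 95% interval -0.33 to 0.14), ZFP36L2 (-0.21, -0.51 to 0.08), RC3H1 (0.10, -0.15 to 0.34) and ELAVL1 (-0.17, -0.49 to 0.16) did not pass either.

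Early ACT 1 weighed on this comparison. It had 968.5 normalized CPM of ZC3H12A, above the 754.6 and 737.1 of its group, and 95.33 of N4BP1, below the 136.5 and 132.8. N4BP1 missed the threshold over all libraries (log2 fold change 0.31 ± 0.13, adjusted p = 0.167) and passed without Early ACT 1 (0.45 ± 0.10, adjusted p = 0.000587, edgeR). Without that library 3 of the 8 genes passed, all higher, with ZC3H12A at 0.41 and ZC3H12C at 0.88, while 1554 in place of 855 genes were called over the whole table. The calls of ZC3H12A and ZC3H12C passed in all 13 alternatives.

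At 19 months none of the 8 genes passed on stimulation, beside a background of 0% of genes called. ZC3H12A had a log2 fold change of -0.05 (95% interval -0.29 to 0.19) and ZC3H12C of 0.14 (-0.13 to 0.41). ZFP36 stood at -0.13 (-0.37 to 0.11), ZFP36L1 at -0.18 (-0.42 to 0.07), ZFP36L2 at 0.11 (-0.18 to 0.40) and N4BP1 at 0.05 (-0.23 to 0.32). Their adjusted p was 0.998 for each (edgeR).

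The stimulation response itself was compared between the times by the interaction, where 1.41% of genes were called. Of all tested genes, 0.186% were called with a positive and 1.23% with a negative estimate. A positive estimate can be a larger late rise or a weaker late fall. None of the 8 passed over all libraries. The response of ZC3H12A was smaller late by 0.58 ± 0.16 on the log2 scale (interaction -0.58, 95% interval -0.92 to -0.25, adjusted p = 0.0796, edgeR) and that of ZC3H12C by a similar amount (-0.60, -0.98 to -0.22, adjusted p = 0.127). Both calls were gained without Early ACT 1, at -0.45 (adjusted p = 0.00391) and -0.73 (adjusted p = 5.61e-05), and with DESeq2 (adjusted p = 0.00805 and 0.042). Without Late CTL 3, the lowest late unstimulated library for ZC3H12C, that gene alone passed (adjusted p = 0.045). Over the 18 alternatives the adjusted p reached 0.244 for ZC3H12A and 0.316 for ZC3H12C, so a smaller late response is called by part of the settings and not by the rest.

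**Figure D4:**
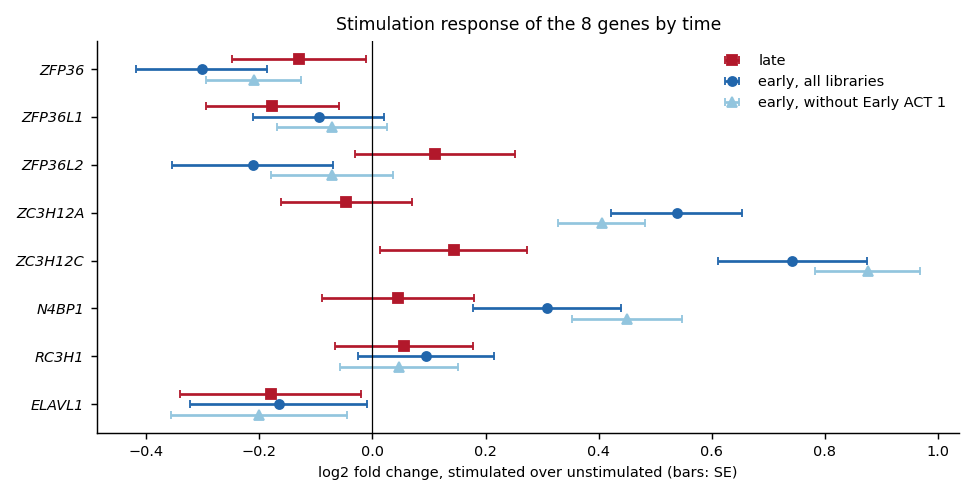
Log2 fold change of stimulated over unstimulated cells (horizontal axis, bars are SE) of the 8 genes, late (red squares), early with all libraries (dark blue circles) and early without Early ACT 1 (light blue triangles). ZC3H12A and ZC3H12C stand at 0.54 and 0.74 early and at -0.05 and 0.14 late.

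Ranked by mean over the 4 groups, the genes fall into several orders. ZFP36 and ZFP36L1 ran from Early CTL through Early ACT and Late CTL down to Late ACT, and ZFP36L2 and ZC3H12C were highest in Late ACT, then Late CTL. ZC3H12C in Late CTL cells, at 226.8 ± 33.7 normalized CPM, overlapped Early ACT cells at 188.1 ± 32.9, and Early CTL cells were lowest at 112.8 ± 4.98 (SD, n = 3 each). ZC3H12A was highest in Early ACT, at 820.0 ± 129, with no overlap with Early CTL at 564.2 ± 22, which in turn lay above Late CTL at 494.9 ± 5.84 and Late ACT at 479.5 ± 43.8, the last pair overlapping. For RC3H1 every neighbouring pair in the order overlapped.

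The genes whose log2 levels followed each member most closely over the 12 libraries were found among 5484 named genes with a mean of at least 10 CPM. The libraries share their 4 groups and their scaling, so these r values are descriptions. For ZFP36 they were ATP6V0A1, a subunit of the lysosomal proton pump (Pearson r = 0.99), SPI1, which encodes the myeloid factor PU.1 (0.98), and MAF1, a repressor of RNA polymerase III (0.98). For ZC3H12C they were EREG, a growth factor of the EGF family (0.99), PTGS2, the inducible cyclooxygenase (0.98), and DUSP6, a phosphatase of ERK (0.98). ZC3H12A was matched by MAP2K3, a kinase that activates p38 (0.98), the lipid receptor gene TREM2 (0.98) and SPHK1, a sphingosine kinase (0.98). N4BP1 was matched by the interferon-induced genes PARP9 (0.96), HERC6 (0.95) and PARP14 (0.94). ZFP36L2 was matched by RIF1, KRIT1 and HEATR1 (0.97 to 0.98), ZFP36L1 by PIGT, SNX2 and CBX6 (0.94 to 0.95), RC3H1 by ZNF335, MYO1G and ARHGEF2 (0.93 to 0.95), and ELAVL1 most closely by ITGB1BP1, at 0.80.

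Paralogs outside the 8 were mostly low or absent, and 4 of 8 could be tested. In unstimulated cells 3 of the 4 were called higher late and 0 lower, beside 20.9% and 19.8% of all genes. KHNYN did not pass, at 84.6 ± 21.9 normalized CPM in Late CTL and 84.8 ± 2.97 in Early CTL libraries (log2 fold change -0.01 ± 0.15, adjusted p = 0.958, edgeR). RC3H2, which encodes Roquin-2, averaged 113.3 ± 3.81 normalized CPM in Late CTL and 88.7 ± 6.85 in Early CTL libraries (log2 fold change 0.35 ± 0.12, adjusted p = 0.0173, edgeR). It lost the call in 4 of 13 alternatives, those with no low-count filter and without Early CTL 1, Early CTL 2 or Late CTL 2 (adjusted p up to 0.108). NYNRIN, a relative of N4BP1, averaged 1.65 ± 0.334 in Late CTL and 0.111 ± 0.098 in Early CTL libraries, and ELAVL2, a mostly neuronal paralog of ELAVL1, 1.08 ± 0.941 and 0.114 ± 0.197 in the same groups. Of 627 tested genes under a mean of 1 normalized CPM, 410 were called higher late and 7 lower in unstimulated cells. Genes this low pass the low-count filter only through the libraries where they are high. A difference between groups was thus largely built in for them, NYNRIN and ELAVL2 included, and their calls are no separate result.

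The general decay machinery had called genes in both directions. Of 16 tested deadenylation genes 3 were higher and 4 lower late in unstimulated cells (median log2 fold change 0.04, against 0.02 over all genes), where 20.9% of all genes were called higher and 19.8% lower. NOCT, whose product was once classed as a deadenylase, averaged 73.4 ± 6.81 normalized CPM in Late CTL and 45.6 ± 3.26 in Early CTL libraries (adjusted p = 0.000281, edgeR). TOB2, an adaptor of CCR4-NOT, averaged 32.5 ± 6.72 and 54.9 ± 5.59 (adjusted p = 0.000489, edgeR). Decapping genes had 2 higher and 1 lower of 12 (median -0.14), exosome genes 1 higher and 1 lower of 12 (median 0.05) and nonsense-mediated decay genes 0 higher and 2 lower of 9 (median -0.21). EXOSC5, an exosome core subunit, was at 1.87 ± 0.63 late and 7.17 ± 2.51 early (adjusted p = 8.4e-05, edgeR). UPF1, the helicase that works with Regnase-1, was at 154.2 ± 22 late and 200 ± 10.2 early (adjusted p = 0.0271, edgeR), a call lost in 5 of 13 alternatives, among them RLE and upper-quartile scaling and leaving out Early CTL 1, Early CTL 2 or Late CTL 3 (adjusted p up to 0.14).

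In stimulated cells late over early the same lists gave 1 higher and 4 lower of 16 deadenylation genes (median 0.13), 3 and 1 of 12 decapping genes (median 0.11), 5 and 1 of 12 exosome genes (median 0.46) and 2 and 2 of 9 nonsense-mediated decay genes (median 0.16), beside 19.1% of genes called higher and 19.7% lower and a median of 0.05. PAN2, a catalytic deadenylase, averaged 54.8 ± 4.29 normalized CPM in Late ACT and 85.1 ± 13.0 in Early ACT libraries (adjusted p = 0.00058, edgeR). EXOSC3 averaged 10.1 ± 1.42 and 5.49 ± 1.18 (adjusted p = 0.00627, edgeR). On early stimulation 4.57% of all genes were called higher and 2.66% lower. Of the 16 deadenylation genes 1 was higher there, NOCT at 81.8 ± 12.6 in Early ACT and 45.6 ± 3.26 in Early CTL (adjusted p = 0.000129, edgeR). The lower calls were EDC3 and DCP1B of 12 decapping genes, the exosome-type nuclease gene DIS3L of 12 exosome genes, and UPF2 and UPF3A of 9 nonsense-mediated decay genes. Of those 5 only UPF2, at 28.6 ± 2.31 in Early ACT and 44.2 ± 1.44 in Early CTL (adjusted p = 0.00331, edgeR), passed in all 13 alternatives.

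Other AU-rich element binding proteins had 4 higher and 1 lower of 11 in unstimulated cells late over early (median 0.28) and 2 higher and 2 lower in stimulated cells (median -0.03). Over all genes 20.9% were higher and 19.8% lower unstimulated and 19.1% and 19.7% stimulated, with medians of 0.02 and 0.05, so the 5 of 11 called unstimulated are near the 40.7% of all genes. CPEB4, which in mouse macrophages stabilizes mRNAs of the late LPS response, averaged 92.9 ± 7.22 normalized CPM in Late CTL and 50.8 ± 3.86 in Early CTL libraries (log2 fold change 0.87 ± 0.14, adjusted p = 2.91e-05, edgeR). ARID5A, which protects IL6 mRNA from Regnase-1 in mice, averaged 103.3 ± 7.89 in Late ACT and 153.3 ± 14.8 in Early ACT libraries (log2 fold change -0.57 ± 0.12, adjusted p = 0.000449, edgeR).

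Enzymes and partners that act on the 8 proteins had 6 higher and 3 lower of 20 late in unstimulated cells (median 0.15) and 4 higher and 5 lower in stimulated cells (median -0.01). Both totals, 9 of 20, are near the 40.7% and 38.8% of all genes called, whose medians were 0.02 and 0.05. MALT1, the paracaspase that cleaves Regnase-1, Roquin and N4BP1, averaged 186.0 ± 30.2 normalized CPM in Late CTL and 109.7 ± 11.0 in Early CTL libraries (log2 fold change 0.76 ± 0.18, adjusted p = 0.00182, edgeR). IRAK1, a kinase that marks Regnase-1 for degradation, averaged 41.0 ± 10.4 and 105.5 ± 11.9 (log2 fold change -1.37 ± 0.16, adjusted p = 3.48e-07, edgeR). MAPKAPK3, the close relative of the kinase that inactivates tristetraprolin, averaged 39.9 ± 4.25 and 70.4 ± 8.61 (log2 fold change -0.82 ± 0.16, adjusted p = 0.000234, edgeR). MAPKAPK2, that kinase itself, averaged 38.8 ± 2.02 and 44.9 ± 1.81 and did not pass (log2 fold change -0.21 ± 0.14, adjusted p = 0.235, edgeR). MALT1, IRAK1 and MAPKAPK3 passed in the same direction in stimulated cells, with MALT1 at 207.8 ± 17.2 in Late ACT and 109.4 ± 38.8 in Early ACT. None of the 20 passed on early or late stimulation.

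**Figure D5:**
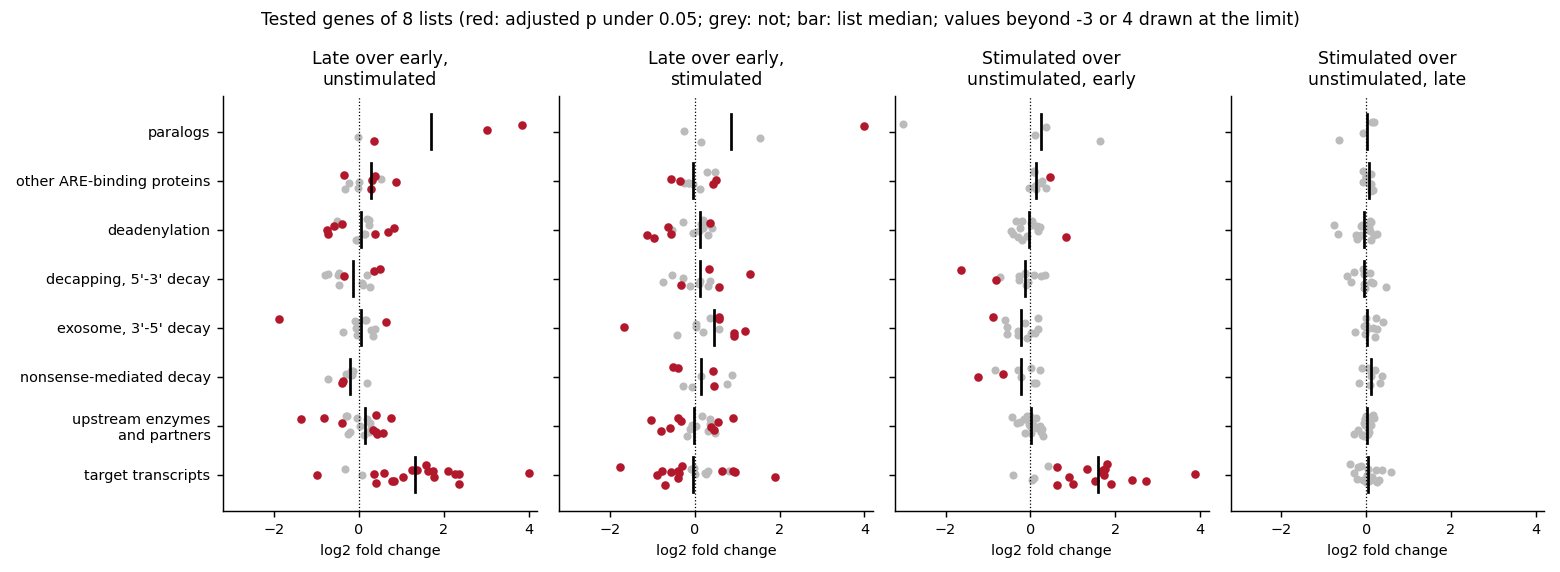
Log2 fold change (horizontal axes, with values beyond -3 or 4 drawn at the limit) of each tested gene in 8 lists of decay factors, partners and targets in 4 comparisons, with red points past an adjusted p of 0.05 and black bars at list medians. Target transcripts have a median of 1.32 late over early unstimulated, -0.05 late over early stimulated, 1.60 on early and 0.04 on late stimulation.

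Among transcripts known as targets of the 8 proteins, 17 of 20 were higher late in unstimulated cells and 1, LCN2, which encodes an iron-scavenging protein, lower (median log2 fold change 1.32). Over all genes 20.9% were called higher and 19.8% lower in this comparison, with a median of 0.02. CCL2, a monocyte chemoattractant, averaged 141.7 ± 13.7 normalized CPM in Late CTL and 27.6 ± 2.13 in Early CTL libraries (adjusted p = 2.65e-12, edgeR). A further 5 targets are named only in the authors' deposited tables, of which 4 were higher and 1 lower, led by the chemokine gene CXCL2 (10560 ± 333 late and 1875 ± 47.9 early) and the cytokine gene IL1A (4570 ± 81.5 late and 1110 ± 11.3 early). Those 5 have a name only because they had passed late against early there. Their calls were thus largely fixed in advance and are no separate result. On early stimulation 16 of 20 rose and none fell (median 1.60), beside 4.57% of all genes called higher and 2.66% lower and a median of -0.0014. The cytokine gene IL6 was at 205.3 ± 8.49 in Early ACT and 31.3 ± 2.50 in Early CTL libraries (adjusted p = 1.07e-13, edgeR). CSF3, the granulocyte growth factor, was at 907.3 ± 149 and 173.3 ± 4.42, and CCL20, a chemokine for lymphocytes, at 649.3 ± 49.1 and 201.6 ± 12.1 in the same groups.

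In stimulated cells late over early 4 of the 20 targets were higher and 9 lower (median -0.05), beside 19.1% of all genes called higher and 19.7% lower and a median of 0.05. CCL2 was at 175.3 ± 14.7 in Late ACT and 92.8 ± 15.3 in Early ACT, and PLAUR, the urokinase receptor, at 736.3 ± 17.2 and 1376 ± 316 (adjusted p = 1.13e-05, edgeR). None of the 20 passed on late stimulation (median 0.04). The interaction called 14 of 20, all with a negative estimate (median -1.43). Over all genes 0.186% were called with a positive and 1.23% with a negative estimate, at a median of -0.0065. For IL6 the estimate was -2.14 ± 0.17 (adjusted p = 9.17e-09, edgeR). Without Early ACT 1 the counts were 17 of 20 higher on early stimulation, 5 higher and 9 lower late over early in stimulated cells, and 15 in the interaction. The 5 comparisons share libraries with each other, so these counts are not independent of one another. The list was drawn up with earlier results on cytokines of these libraries known, and its direction is not independent support.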

How the data were processed

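The 12 libraries were prepared by the SMART-Seq V4 and Nextera XT kits, per the labels; these kits do not mark the strand, so reads of overlapping antisense genes cannot be told apart. The authors deposited raw counts per gene; build Mmul_8.0.1 and bcl2fastq come from the submitters' processing notes, while the aligner, the counter and the treatment of paralogs were not given in the sources used here. The authors' 2 deposited comparison tables hold, late over early, log2 fold changes, the mean normalized count (a signal), the standard error and test score, and p-values with adjusted values; only genes with an adjusted p-value under 0.05 are listed, and the tool is not stated.

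Of 32386 rows 15701 had a usable name. Genes were tested with edgeR 4.0.16 (robust quasi-likelihood F test, R 4.3.3), TMM scaling, the filterByExpr filter and 1 mean per group fitted to all 12 libraries, which left 11826 genes; p-values were Benjamini-Hochberg adjusted over them. Standard errors were obtained by dividing the log2 fold change by the root of its F. Normalized CPM divides counts by the TMM-scaled total of tested genes. Totals were 3910680 to 12972505; counts carry no molecular identifiers. The members and lists were chosen with earlier results of these data known. All 8 members passed the filter on low counts. From each list up to 3 called genes with the smallest p per comparison were eligible to be named. MAPKAPK2 and KHNYN are named as well, though they did not pass late over early in unstimulated cells. List counts leave out genes named only in the authors' tables. Alternatives were other scalings, filters, DESeq2 1.42.0, a replicate block, compared groups alone and leaving out each library. The pipeline was tested on simulated data.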

Additional observations from a re-analysis of the deposited data

How the results depend on the processing

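Of 40 values, 8 genes in 5 comparisons, 25 kept direction and side of the threshold under every alternative run; of the 560 values under alternatives 513 did so, 17 lost and 6 gained the call, and 24 turned sign, none of them a called value. The count of members late over early unstimulated was 3 in place of 5 under RLE and under upper-quartile scaling, and 3 to 4 with a library left out. On early stimulation 503 genes were called with only the compared groups, and 464 to 1554 with a library left out, the highest without Early ACT 1. On late stimulation 2 were called under upper-quartile scaling, 5 with no low-count filter, 10 with only the compared groups, 14 with DESeq2 and 0 to 2 with a library left out. The interaction gave 305 genes and 2 members with DESeq2, and 95 to 546 genes and 0 to 2 members with a library left out, the highest without Early ACT 1. The causes were not tested.

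Late over early, ELAVL1 unstimulated turned to -0.046 with no low-count filter and ranged from -0.103 to 0.154 with a library left out, and RC3H1 turned to 0.008 under upper-quartile scaling. ELAVL1 stimulated turned to 0.031 under RLE scaling, 0.103 under upper-quartile scaling, 0.022 with a mean CPM of 1 or more, 0.016 with only the compared groups and 0.025 with DESeq2, and ranged from -0.046 to 0.017 with a library left out. With a library left out, late stimulation ranged from -0.042 to 0.214 for ZFP36L2, -0.007 to 0.116 for N4BP1 and -0.099 to 0.027 for ZC3H12A, and the interaction from -0.164 to 0.092 for ELAVL1, -0.085 to 0.019 for RC3H1 and -0.122 to 0.002 for ZFP36L1.

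Same-numbered libraries correlated at -0.086 to 0.097 in their deviations from group means. Values this low cannot show whether they share an animal or a preparation. Each Late CTL library correlated best with the Early CTL library of its own number, while in the other pairs of groups not every library did. With a replicate block 4596, 4354, 727, 0 and 114 genes were called in the 5 comparisons, and 4, 6, 2, 0 and 0 members.

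Depth limits ELAVL1, at 101 to 322 counts a library, most among the 8 genes.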
